A study of Mus musculus with 12 samples.

Results

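The axon guidance ligands and receptors of the mouse subventricular zone were followed from young adulthood to old age. The set was taken by gene symbol: semaphorins of classes 3 to 7, plexins, neuropilins (Nrp1 and Nrp2), ephrins, Eph receptors, Slits, Robo1 to Robo3, netrins, Unc5a to Unc5d, Dcc and Neo1. It held 69 of the 23725 genes in the deposited table, and the 67 that reached 10 normalised counts in 3 or more libraries were tested. The subventricular zone (SVZ) lies along the lateral ventricle and holds neural stem cells whose progeny migrate as young neurons. Tissue of male wild-type mice aged 2, 6, 18 and 22 months was dissociated before RNA extraction, and 3 libraries were sequenced per age, 12 in all. The labels give a strain, C57BL/6, for the 2-month mice alone. Whether separate animals gave the 3 libraries of an age is not stated, so each p-value reflects the spread among libraries, which may be technical. The libraries hold RNA of all cells of the dissected tissue, so fewer cells of a type and less RNA per cell cannot be told apart.

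Guidance molecules are secreted or membrane-bound ligands that attract or repel growing axons and migrating cells. Semaphorins signal through plexins, the secreted class with neuropilins as co-receptors. Ephrins signal through Eph receptor tyrosine kinases on touching cells, and the ephrins signal back into the cell that carries them. Slits repel through Robo receptors, and netrins attract through Dcc and Neo1 or repel through Unc5 receptors. In the adult SVZ, Slits and their Robo receptors are known for steering young neurons along the rostral migratory stream, and ephrins and Eph receptors for acting on progenitor proliferation and migration.

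The libraries held 6381390 to 15962517 recovered reads, and 3 reads, the limit that a count of 0 allows, came to between 1.74 and 4.41 normalised counts. This limit covers counting error only. Values are normalised counts, that is, reads divided by a size factor of the library, and are listed for replicates 1, 2 and 3 in that order. The share of each library on transcripts longer than 6000 nt stood at 20.6% ± 0.249 in the 22-month libraries, against 24.9% ± 0.627, 24.3% ± 1.30 and 24.3% ± 1.15 in those of 2, 6 and 18 months (SD, n = 3). The share on all 69 members was 0.301% ± 0.00682 at 22 months, against 0.349% ± 0.00800, 0.339% ± 0.0103 and 0.335% ± 0.0130 in the younger ages in that order. The members' longest annotated transcripts had a median of 5095 nt against 3422 nt over all tested genes, and 38.8% of the tested members exceeded 6000 nt against 14.7% of tested genes. Summed markers of striatal neurons (9 genes, 71426 to 84020 over the 12 libraries) and of oligodendrocytes (10 genes, 71301 to 125642) were higher than those of young neurons (12 genes, 11579 to 15243), and no marker of these lists was at 0 in all libraries. The sums are not scaled for transcript length or number of genes, and they do not measure shares of cells.

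Most guidance members that changed with age fell, and of the 3 steps between neighbouring ages the last, from 18 to 22 months, held most calls. From 2 to 22 months 30 of the 67 tested members fell and 2 rose, Ephb6 and Unc5a, while 35 did not pass an adjusted p of 0.05 (limma, all 12 libraries in 1 fit, Benjamini-Hochberg over 15663 genes). The falls made up 44.8% of the members, where 17.2% of all tested genes fell, and the rises 2.99%, where 18.4% of all tested genes rose. The median log2 fold change of the members was -0.26, against 0.02 over all tested genes. Receptors fell more often than ligands in number, 19 of 34 against 11 of 33, and that difference was not tested. The order turned round, at 7 of 34 receptors against 9 of 33 ligands, with a trend over transcript length and GC content removed, as described below. All 3 Slits, all 3 Robo receptors and 7 of 9 plexins fell, as did 8 of 20 semaphorins, 5 of 9 EphA receptors, 3 of 6 netrin receptors and Nrp2. Of the Robo receptors, Robo3 passed the filter on low values through the younger ages alone. In contrast, 0 of 7 tested ephrins and 0 of 3 tested netrins passed (limma; Efna3 alone of these 10 had an unadjusted p under 0.05, and 0 passed with DESeq2 or edgeR).

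**Figure D1:**
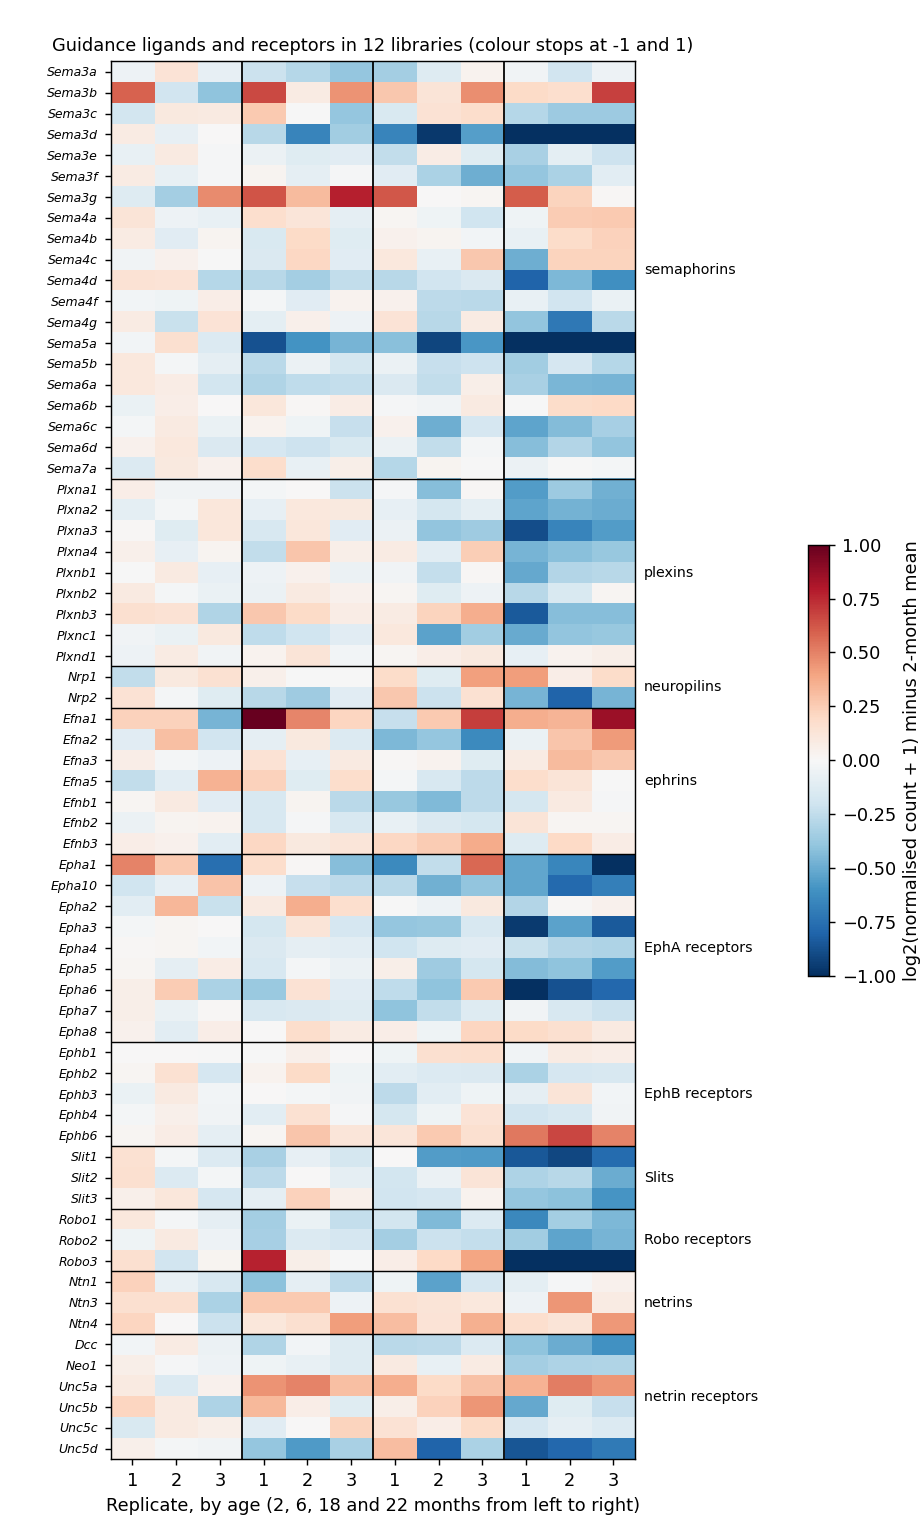
The colours show log2(normalised count + 1) of the 67 tested members in each library minus the mean of the 3 libraries at 2 months, with ages from left to right and families from top to bottom. The 3 columns at 22 months hold most of the dark blue cells, with Sema3d, Sema5a, Epha3, Epha6, Slit1 and Robo3 among the darkest, while Ephb6 and Unc5a are red there.

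The earlier steps held few calls. At 6 against 2 months 1 member rose (Unc5a) and 1 fell (Sema5a), which is 2.99% of the members against 0.926% of all tested genes (0.607% higher and 0.319% lower). At 18 against 6 months 0 members passed with limma, DESeq2 or edgeR, where 0.153% of all tested genes passed with limma (0.0702% higher and 0.083% lower), and 3 members had an unadjusted p under 0.05. At 22 against 18 months 4 members rose (Efna2, Efnb1, Efnb2 and Ephb6) and 22 fell, 38.8% of the members against 18.9% of all tested genes (8.63% higher and 10.2% lower). At 18 against 2 months 2 rose and 4 fell, against 7.28% of all tested genes (3.94% higher and 3.35% lower). At 22 against 6 months 1 rose and 21 fell, against 22.2% (10.6% higher and 11.6% lower). Of the 30 members that fell from 2 to 22 months, 25 had their largest step between 18 and 22 months, and the median steps were -0.11 from 2 to 6 months, -0.04 from 6 to 18 months and -0.34 from 18 to 22 months on the log2 scale. These 30 were chosen by their libraries at 2 and 22 months, which also enter the first and last steps, so the choice favours those steps. The same count was not made over all tested genes that fell, so it is not shown to be a trait of the members. The moderated F test over the 4 ages called 32 members (47.8%) against 31.5% of all tested genes.

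The calls of the last step rested more on single libraries than those of the whole span. Between 18 and 22 months the count of 26 became 11 without replicate 3 of 18 months, 15 without replicate 3 of 22 months and 17 without replicate 1 of 18 months, and 9 of the 26 calls held without each library in turn. Between 2 and 22 months 28 of the 32 calls held without each library in turn, and the count ran from 29 to 34. Those of Sema4g, Sema5b, Sema6c and Slit2 did not, as given with each of them. At 6 against 2 months, 0 members passed without replicate 2 of 2 months, without replicate 1 of 6 months or without replicate 2 of 6 months, and Unc5a alone passed without replicate 1 of 2 months.

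Transcript length moved with these differences. Among members with transcripts over 6000 nt, 20 of 26 fell from 2 to 22 months and 0 rose, where 58.7% of all tested genes of that length fell and 3.07% rose. Among members up to 6000 nt, 10 of 41 fell and 2 rose, where 10.3% of tested genes of that length fell and 21.6% rose. A smooth curve of each library against length and GC content was then taken out. Without this trend 16 members fell and 3 rose from 2 to 22 months, where 22.4% of all tested genes passed (9.84% lower and 12.5% higher). The members' median became -0.07, and 17 of the 32 calls held. Between 18 and 22 months 7 then fell and 4 rose, where 10.6% of all tested genes passed (4.63% lower and 5.95% higher), and the members' median was 0.0008. The count was 1 at 6 against 2 months (0.714% of all tested genes) and 12 at 22 against 6 months (12.6%), where the split became 5 higher and 7 lower in place of 1 and 21. Of the 26 calls from 18 to 22 months, 10 held, those of Sema4d, Plxnb3, Nrp2, Efna2, Efnb2, Efnb3, Epha6, Ephb6, Robo3 and Unc5b. For calls at 22 against 2 months that ended without the trend, the adjusted p is given with each member.

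**Figure D2:**
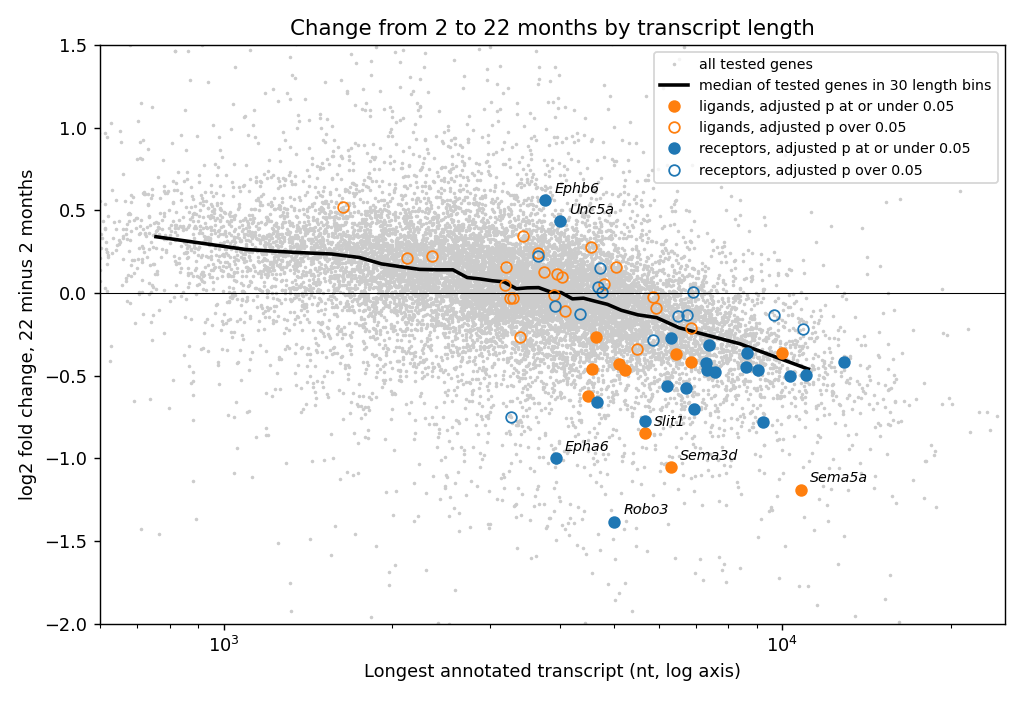
Each point is a tested gene, with the length of its longest annotated transcript on a log axis and its log2 fold change at 22 against 2 months, and members are drawn as circles, filled where they passed. The median of all tested genes (line) runs from above 0 for short transcripts to below 0 for long ones, most filled circles lie at or below it, and genes outside the drawn range of -2 to 1.5 are not shown.

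A total of 13 of the 32 calls at 22 against 2 months held under every alternative in which the member was tested. Alternatives on length and GC content and on single libraries were included. These 13 calls were the falls of Sema3d, Sema4d, Sema5a, Plxna3, Plxnb3, Epha3, Epha6, Epha10, Slit1, Slit3 and Robo3 and the rises of Ephb6 and Unc5a. Robo3 was tested under 23 alternatives and the others under 24. With at most 36.7 normalised counts in a library, Robo3 did not pass the stricter filter on low values.

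**Figure D3:**
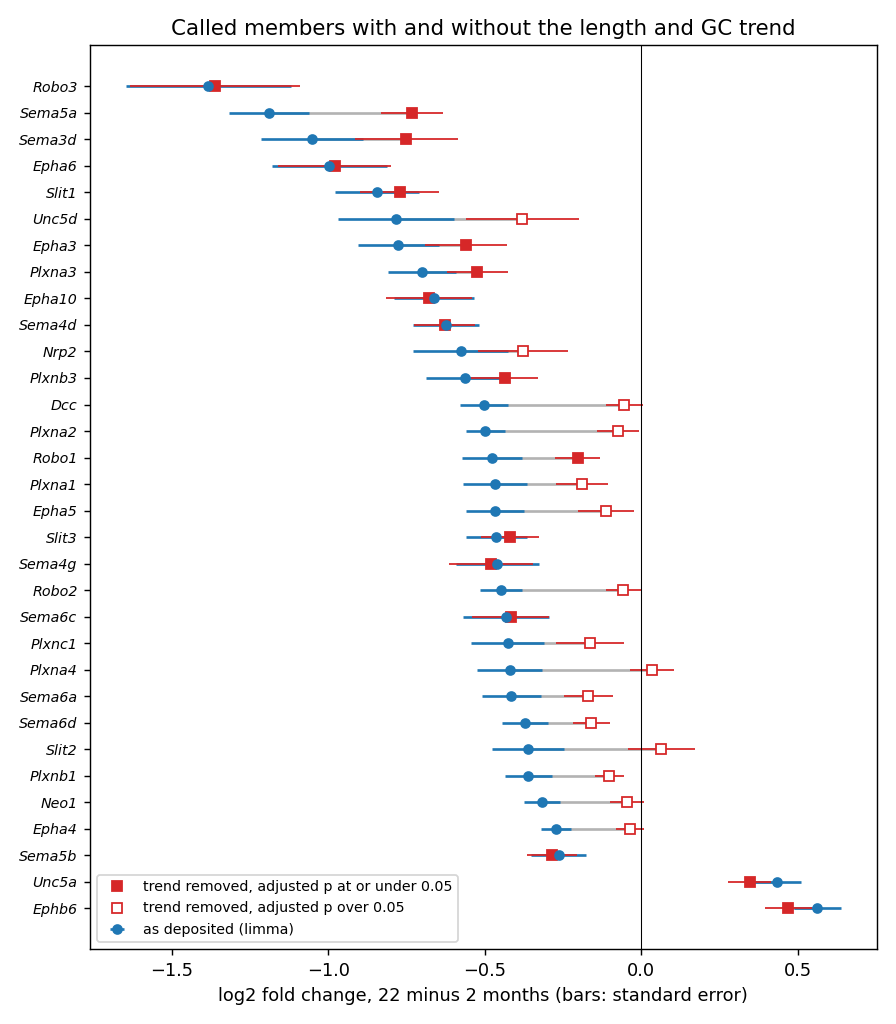
Circles give the log2 fold change at 22 against 2 months of the 32 called members with its standard error, and squares the same with the length and GC trend removed, filled where the adjusted p stayed at or under 0.05. Sema4d, Sema4g, Epha6, Epha10 and Robo3 barely move, whereas Dcc, Plxna2, Plxna4, Robo2 and Slit2 move to near 0.

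Promoter sequence is shown for 4 members, the 2 with the lowest fold changes from 2 to 22 months (Sema5a and Robo3) and the 2 that rose (Ephb6 and Unc5a). The windows are 300-base promoter windows of RefSeq on GRCm38.p6, read 5′ to 3′ on the gene's strand. That of Sema5a runs from 250 bases before to 50 bases after the gene start given below. Those of Robo3, Ephb6 and Unc5a lie inside the gene spans given below and do not cover the outermost start. Capitals mark GC boxes (GGGCGG on either strand, overlapping matches included). The Sema5a window lies at chr15:32244563-32244862 on the plus strand, Robo3 at chr9:37433126-37433425 on the minus strand, Ephb6 at chr6:41605261-41605560 on the plus strand and Unc5a at chr13:54949161-54949460 on the plus strand.
Sema5a: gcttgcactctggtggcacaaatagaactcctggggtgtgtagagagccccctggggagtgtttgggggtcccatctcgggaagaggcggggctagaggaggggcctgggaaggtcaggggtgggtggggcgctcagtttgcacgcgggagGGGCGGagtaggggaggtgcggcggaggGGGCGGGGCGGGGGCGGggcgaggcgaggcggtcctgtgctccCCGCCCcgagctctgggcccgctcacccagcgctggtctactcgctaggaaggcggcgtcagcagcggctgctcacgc
Robo3: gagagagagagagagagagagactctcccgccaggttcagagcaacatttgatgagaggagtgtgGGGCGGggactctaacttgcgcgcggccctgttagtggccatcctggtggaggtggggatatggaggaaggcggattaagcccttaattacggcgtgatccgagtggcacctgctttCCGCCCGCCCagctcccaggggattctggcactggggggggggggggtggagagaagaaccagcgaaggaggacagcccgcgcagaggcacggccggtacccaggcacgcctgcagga
Ephb6: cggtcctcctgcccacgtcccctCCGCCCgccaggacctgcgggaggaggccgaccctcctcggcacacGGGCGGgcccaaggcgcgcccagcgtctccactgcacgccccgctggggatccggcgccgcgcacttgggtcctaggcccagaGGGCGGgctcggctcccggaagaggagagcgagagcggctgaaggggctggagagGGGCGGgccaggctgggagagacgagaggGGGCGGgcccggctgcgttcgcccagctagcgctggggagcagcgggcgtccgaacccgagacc
Unc5a: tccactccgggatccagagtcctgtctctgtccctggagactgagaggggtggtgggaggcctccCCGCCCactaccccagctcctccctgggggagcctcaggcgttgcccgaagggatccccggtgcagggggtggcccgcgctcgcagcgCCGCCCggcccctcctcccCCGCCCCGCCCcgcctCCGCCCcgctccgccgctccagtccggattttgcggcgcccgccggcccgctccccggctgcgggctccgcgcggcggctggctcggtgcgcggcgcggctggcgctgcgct
The 4 windows held 5, 3, 5 and 5 GC boxes in that order, 0 TATA boxes (TATAAA on either strand) and 0 CCAAT boxes (CCAAT on either strand). Windows were at hand for 59 of the 69 members, 75 windows in all. GC boxes were found in 72.0% of these against 35.7% of all 32851 windows of that length, CCAAT boxes in 28.0% against 37.4%, TATA boxes in 2.67% against 13.6%, and E-boxes (CANNTG) in 49.3% against 72.3%. The median number of CG pairs was 20 in the member windows against 7 over all windows, and the shares of matches were not adjusted for base composition. These matches describe the letters of the windows.

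Levels between genes were compared per length, as normalised counts per kb of the longest transcript at 2 months. The ephrin Efnb3 was highest at 656 ± 41.2 (SD, n = 3), followed by the receptor Epha4 at 362 ± 6.80. Then came Efnb2 at 225 ± 8.18, Sema6b at 210 ± 9.68 and Ephb1 at 204 ± 1.04, of which Sema6b and Ephb1 differed by less than the SD of Sema6b. The highest plexin was Plxnd1 at 192 ± 9.59, the highest Robo receptor Robo2 at 162 ± 8.80, the highest netrin receptor Neo1 at 155 ± 5.93 and the highest Slit Slit3 at 90.9 ± 9.15. The netrin ligands stood low, with Ntn1 at 34.0 ± 4.96, Ntn4 at 16.7 ± 2.52 and Ntn3 at 15.2 ± 2.75 per kb. Robo3 at 4.24 ± 0.546 and Epha1 at 3.22 ± 1.40 were the lowest tested members. Efna4 and Ntn5 did not pass the filter on low values, with at most 11.4 and 3.59 normalised counts in a library, and were not tested.

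Semaphorins, the largest ligand family, fell in 8 of 20 members from 2 to 22 months and rose in 0. Sema5a (id 20356, chromosome 15, 32244813 to 32696341), a transmembrane semaphorin with thrombospondin repeats that binds plexin B3, fell most of the 20. Its normalised counts were 313, 355 and 289.9 at 2 months, 173, 209.6 and 230.2 at 6 months, 237, 168 and 212 at 18 months, and 139, 148 and 129 at 22 months. All 3 libraries at 2 months lay above the 9 later ones, and all 3 at 22 months lay below the 9 earlier ones. The log2 fold change was -1.19 ± 0.13 (adjusted p = 1.04e-05) at 22 against 2 months and -0.65 ± 0.13 (adjusted p = 0.0229) at 6 against 2 months. The early call was lost on leaving out replicate 1 or 2 of 2 months or replicate 1 or 2 of 6 months (adjusted p up to 0.132). The late step of -0.55 ± 0.13 (adjusted p = 0.0081) had an adjusted p of 0.32 with the length and GC trend removed.

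Sema3d (id 108151, chromosome 5), a secreted class 3 semaphorin, had 76.1, 67.9 and 72.2 at 2 months, 59.1, 45.3 and 56.2 at 6 months, 45.1, 36.5 and 48.8 at 18 months, and 35.2, 35.3 and 32.1 at 22 months. Each age's mean was below that of the age before, and 22 months did not overlap any earlier age. It fell by 1.05 ± 0.16 (adjusted p = 0.000167) from 2 to 22 months, and by 0.73 ± 0.16 (adjusted p = 0.0126) from 2 to 18 months. The latter call was lost on leaving out replicate 1 of 2 months or replicate 2 of 18 months (adjusted p up to 0.0569). Sema4d (id 20354, chromosome 13), a transmembrane ligand of plexin B1 that oligodendrocytes carry, had 611, 608 and 452 at 2 months, 456, 435 and 465 at 6 months, 454, 482 and 499 at 18 months, and 315, 404 and 359 at 22 months. Only the 22-month libraries stood apart from all 9 others, and Sema4d fell by 0.62 ± 0.11 (adjusted p = 0.000349) on the log2 scale from 2 months and by 0.42 ± 0.11 (adjusted p = 0.0125) from 18 months. The latter call was lost on leaving out replicate 3 of 18 months (adjusted p = 0.0625), and in limma without an intensity trend.

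Sema6d (id 214968, chromosome 2), a transmembrane ligand of plexin A1, had 919, 961 and 809 at 2 months, 797, 773 and 805 at 6 months, 859, 754 and 882 at 18 months, and 665, 729 and 681 at 22 months. Its 22-month libraries lay below all others. Sema6a (id 20358, chromosome 18), a ligand of plexins A2 and A4, had 381, 374 and 313 at 2 months, 287, 298 and 301 at 6 months, 321, 299 and 370.3 at 18 months, and 283, 259 and 257 at 22 months. Its libraries at 22 months lay just under the lowest of the earlier ages. Their log2 fold changes at 22 against 2 months were -0.37 ± 0.07 (adjusted p = 0.00108) and -0.41 ± 0.09 (adjusted p = 0.0026). Without the length and GC trend their adjusted p became 0.0664 and 0.131.

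Sema4g (chromosome 19) had 210.4, 171 and 219 at 2 months, 185, 206 and 192 at 6 months, 219, 164 and 210.3 at 18 months, and 151, 120.5 and 165 at 22 months. All libraries of 22 months lay below those of 2 months. It fell by 0.46 ± 0.13 (adjusted p = 0.0132), a call lost on leaving out replicate 1 or 3 of 2 months or replicate 2 of 22 months (adjusted p up to 0.0775). Sema6c (chromosome 3), a class 6 transmembrane semaphorin, had 108, 116 and 105 at 2 months, 112, 106 and 93.1 at 6 months, 113, 77.8 and 97.6 at 18 months, and 75.6, 80.8 and 87.0 at 22 months. It fell by 0.43 ± 0.14 (adjusted p = 0.0215) from 2 to 22 months. Its 22-month libraries lay below those at 2 and 6 months and overlapped those at 18 months. That call was lost with DESeq2 (adjusted p = 0.0553) and without replicate 2 of 2 months or replicate 1 or 2 of 22 months (up to 0.0799). Sema5b (chromosome 16), the relative of Sema5a, had 294, 271 and 258 at 2 months, 227, 262 and 242 at 6 months, 262, 233 and 237 at 18 months, and 215, 244 and 225 at 22 months. It fell by 0.26 ± 0.09 (adjusted p = 0.0275) from 2 to 22 months, and neighbouring ages overlapped. It was lost with DESeq2 (0.0573) and without replicate 1 or 2 of 2 months or replicate 1 or 3 of 22 months (up to 0.117).

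Class 3 semaphorins other than Sema3d did not pass in any comparison with limma as deposited. Sema3a (chromosome 5), the repellent that acts through Nrp1, had 417, 475 and 408 at 2 months, 372, 354 and 331 at 6 months, 341, 396 and 443 at 18 months, and 422, 379 and 417 at 22 months. All 3 libraries at 6 months lay below those at 2 months, and those at 22 months overlapped them (6 against 2 months -0.30 ± 0.09 (adjusted p = 0.135)). With the length and GC trend removed, 22 months was higher than 6 months (adjusted p = 0.0181). Sema3g, a class 3 semaphorin of vessels, had 30.9, 26.6 and 47.4 at 2 months, 53.0, 42.4 and 58.9 at 6 months, 52.7, 34.0 and 34.4 at 18 months, and 52.1, 39.7 and 34.2 at 22 months. Its ages overlapped throughout. Sema3b, Sema3c, Sema3e, Sema3f, Sema4a, Sema4b, Sema4c, Sema4f, Sema6b and Sema7a, a glycolipid-anchored ligand of plexin C1, did not pass with limma either. With edgeR, Sema3e passed at 22 against 2 months (adjusted p = 0.044, against 0.0559 with limma). The means of the 4 ages were lowest in Sema3b, at 28.6 to 36.9, and highest in Sema6b, at 784 to 859. Of these, Sema3f alone passed with the length and GC trend removed, as lower at 22 and at 18 than at 2 months (adjusted p = 0.0116 and 0.0324).

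**Figure D4:**
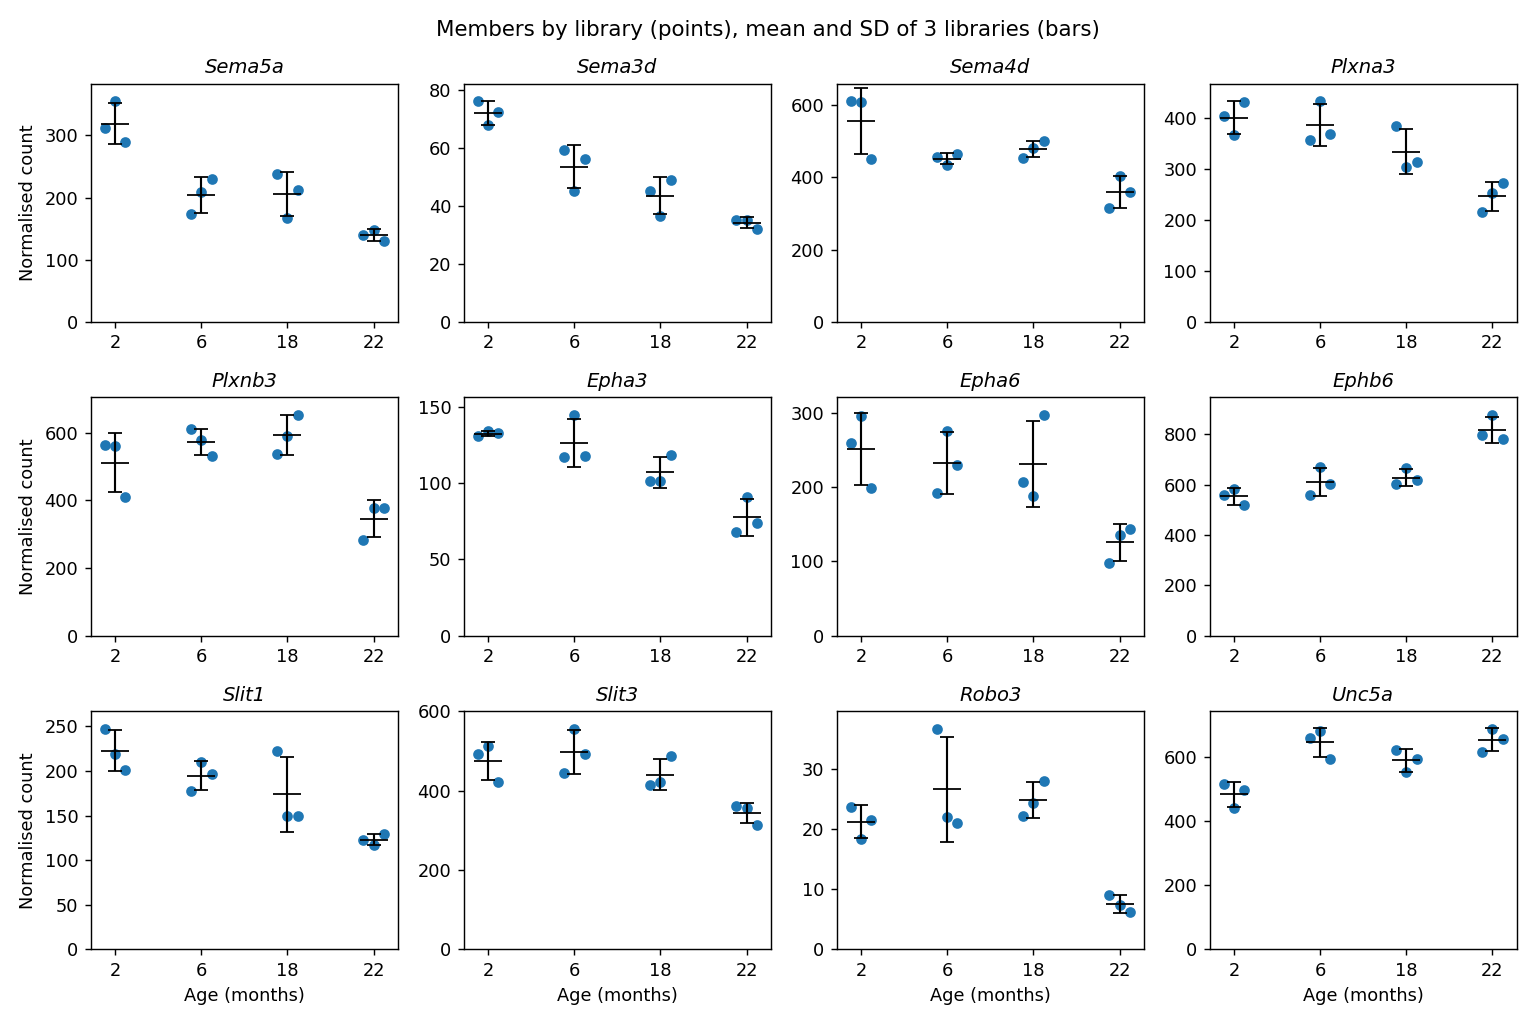
Points are normalised counts of single libraries, and bars the mean and SD of 3 libraries, for the 12 members drawn (all axes start at 0). At 22 months every library of Sema5a, Sema3d, Sema4d, Plxna3, Plxnb3, Epha3, Epha6, Slit1, Slit3 and Robo3 lies below every earlier library, and every library of Ephb6 above.

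Plexins, the semaphorin receptors, fell in 7 of 9 members from 2 to 22 months, and 6 of the 7 also fell from 18 to 22 months. All 9 have transcripts over 6000 nt, a class in which 58.7% and 42.3% of all tested genes fell over these spans. Once the curve over length and GC content was taken out, 2 of 9 plexins passed as lower from 2 to 22 months. From 18 to 22 months 1 of 9 did. Their median log2 fold changes were then -0.10 and -0.01. The summed plexins given below carry no such adjustment. Plxna3 (id 18846, chromosome X, 74328290 to 74344689), a co-receptor of secreted semaphorins, had 404, 368 and 433 at 2 months, 358, 434 and 369.9 at 6 months, 385, 304 and 314 at 18 months, and 216, 253 and 272 at 22 months. Plxnb3 (id 140571, chromosome X, 73756556 to 73772510), the receptor of Sema5a named above, had 565, 560.3 and 409.5 at 2 months, 609, 577 and 531 at 6 months, 536, 590.0 and 652 at 18 months, and 283, 376 and 377 at 22 months. In both, the 3 libraries at 22 months lay below the 9 others, and Plxnb3 showed no decline before. Plxna3 fell by 0.70 ± 0.11 (adjusted p = 0.000167) from 2 to 22 months. Plxnb3 fell by 0.79 ± 0.12 (adjusted p = 0.000759) from 18 to 22 months and by 0.56 ± 0.12 (adjusted p = 0.00231) from 2 to 22 months.

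Plxna2 (id 18845, chromosome 1, 194619791 to 194816869), the most abundant A plexin per length, had 1732, 1828 and 1998 at 2 months, 1747, 1992 and 1979 at 6 months, 1745, 1635 and 1729 at 18 months, and 1284, 1334 and 1311 at 22 months. Plxna4 (chromosome 6), which pairs with neuropilins and binds class 6 semaphorins, had 862, 785 and 845 at 2 months, 698, 1007 and 864 at 6 months, 880.3, 772 and 982 at 18 months, and 602, 619.9 and 638 at 22 months. Plxna1 (chromosome 6) had 489.6, 458 and 457 at 2 months, 461, 469.7 and 403 at 6 months, 465, 348 and 471 at 18 months, and 317, 364 and 335 at 22 months. In Plxna1, 11% of its exon bases overlap a gene model on the opposite strand (Gm26811). Plxna2 and Plxna4 at 22 months lay below every earlier library and did not overlap them, and Plxna1 overlapped at 18 months. Log2 fold changes at 22 against 2 months were -0.50 ± 0.06 (adjusted p = 3.83e-05) for Plxna2, -0.42 ± 0.10 (adjusted p = 0.0052) for Plxna4 and -0.47 ± 0.10 (adjusted p = 0.00219) for Plxna1. These transcripts are 9034 to 12877 nt long, and without the length and GC trend their adjusted p became 0.456, 0.76 and 0.111.

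Plxnb1 (chromosome 9), the receptor of Sema4d, had 1538, 1641 and 1461 at 2 months, 1493, 1593 and 1485 at 6 months, 1507, 1308 and 1559 at 18 months, and 1085, 1259 and 1275 at 22 months. Its libraries of 22 months were under all earlier ones. Plxnc1 (chromosome 10), the receptor of Sema7a, had 461, 451 and 503 at 2 months, 394, 410.5 and 436 at 6 months, 508, 324 and 370.3 at 18 months, and 332, 358 and 361 at 22 months. Replicate 1 of 18 months was the highest of its 12 values. They fell from 2 to 22 months by 0.36 ± 0.07 (adjusted p = 0.00148) and 0.43 ± 0.12 (adjusted p = 0.00912), and with the trend removed the adjusted p became 0.127 and 0.297. Plxnb2 (chromosome 15), a B plexin of neural progenitors, had 1059, 982 and 949 at 2 months, 954, 1062 and 1026 at 6 months, 1011, 917 and 959 at 18 months, and 820.0, 895 and 1007 at 22 months. Its ages overlapped. The difference at 22 against 2 months was -0.14 ± 0.07 (adjusted p = 0.151). Plxnd1, the receptor of Sema3e, kept means of 1326 to 1382 and did not pass, but it passed as higher at 22 than at 6 months with the trend removed (adjusted p = 0.0349). The summed plexins ran from 6189 to 6959 normalised counts at 22 months, under the 8350.0 to 8475, 8073 to 8998 and 7582 to 8456 of 2, 6 and 18 months.

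The neuropilins parted. Nrp2 (chromosome 1), the co-receptor of Sema3f, had 99.8, 89.0 and 83.0 at 2 months, 74.4, 70.3 and 83.5 at 6 months, 109, 77.8 and 100.5 at 18 months, and 65.2, 51.4 and 65.2 at 22 months. Its 22-month libraries were the lowest of the 12, and it fell by 0.64 ± 0.15 (adjusted p = 0.00809) from 18 months and by 0.58 ± 0.15 (adjusted p = 0.00728) from 2 months. With the trend removed the latter had an adjusted p of 0.0684. Nrp1 (chromosome 8), the co-receptor of Sema3a and of vascular endothelial growth factor, had 108, 138 and 143 at 2 months, 134, 128 and 128 at 6 months, 146, 118 and 172 at 18 months, and 172, 135 and 146 at 22 months. Its ages overlapped except 22 against 6 months, and it did not pass (22 against 2 months 0.22 ± 0.14 (adjusted p = 0.231)).

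Among the Eph receptors, 5 of 9 EphA members fell from 2 to 22 months, and Ephb6 alone of 5 EphB members passed, as higher. Epha6 (id 13840, chromosome 16, 59641433 to 60610911), a neuronal Eph receptor, had 259, 296 and 199 at 2 months, 192, 275 and 229 at 6 months, 208, 188 and 297 at 18 months, and 97.8, 135 and 144 at 22 months. Epha3 (id 13837, chromosome 16, 63543532 to 63864175), a receptor of A ephrins, had 131, 134 and 133 at 2 months, 117, 145 and 118 at 6 months, 101, 101 and 118 at 18 months, and 67.8, 91.1 and 73.5 at 22 months. In both, every library at 22 months lay below every earlier one. Epha6 fell by 0.86 ± 0.18 (adjusted p = 0.0046) from 18 to 22 months, where its neighbouring earlier ages overlapped. Epha3 fell by 0.78 ± 0.13 (adjusted p = 0.000301) from 2 to 22 months, and its last step of -0.47 ± 0.13 (adjusted p = 0.0197) had an adjusted p of 0.132 with the length and GC trend removed.

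Ephb6 (id 13848, chromosome 6, 41603834 to 41620509) and Epha10 (id 230735, chromosome 4, 124881530 to 124917801) are the Eph receptors without kinase activity, and they went in opposite directions. Ephb6 had 559.8, 582 and 518 at 2 months, 561, 670.0 and 603 at 6 months, 602, 665 and 618 at 18 months, and 798, 877 and 781 at 22 months. Epha10 had 145, 158 and 204 at 2 months, 161, 142 and 139 at 6 months, 139, 119 and 127 at 18 months, and 116, 97.0 and 104 at 22 months. All 3 Ephb6 libraries at 22 months were above the 9 others, and all 3 of Epha10 were below. Ephb6 rose by 0.56 ± 0.08 (adjusted p = 5.72e-05) from 2 to 22 months, with 0.38 ± 0.08 (adjusted p = 0.00296) in the last step, and Epha10 fell by 0.66 ± 0.13 (adjusted p = 0.000903).

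Epha4 (id 13838, chromosome 1, 77367182 to 77515107), a receptor of both ephrin classes and the most abundant Eph receptor per length, had 2306, 2322 and 2241 at 2 months, 2069.9, 2149.9 and 2125 at 6 months, 1994, 2090.0 and 2114 at 18 months, and 1965, 1867 and 1851 at 22 months. Epha5 (chromosome 5), a neuronal receptor of A ephrins, had 444, 414 and 462 at 2 months, 392, 433 and 423 at 6 months, 458, 343 and 389.7 at 18 months, and 325, 332 and 298 at 22 months. In Epha4 all 3 libraries of 2 months lay above the other 9 and all 3 of 22 months below, with a small range, and in Epha5 the 22-month libraries were again lowest. They fell by 0.27 ± 0.05 (adjusted p = 0.000439) and 0.47 ± 0.09 (adjusted p = 0.00109) from 2 to 22 months, with adjusted p of 0.601 and 0.39 once the trend was removed. Epha7 (chromosome 4) had 890.1, 816 and 862 at 2 months, 766, 776 and 784 at 6 months, 646, 723 and 781 at 18 months, and 836, 767 and 738 at 22 months. It was lower at 18 than at 2 months by 0.26 ± 0.07 (adjusted p = 0.0334), a call that ended under 10 of the alternatives, the trend removal among them (adjusted p = 0.107). The later difference, 22 against 18 months, did not pass as deposited and passed, as higher, with the trend removed (adjusted p = 0.00427).

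Ephb2 (chromosome 4), a receptor of B ephrins at synapses, had 197, 216 and 174 at 2 months, 199.8, 223 and 189 at 6 months, 181, 177 and 176 at 18 months, and 156, 173 and 174 at 22 months. It did not pass with limma (22 against 2 months -0.22 ± 0.10 (adjusted p = 0.102)), but passed as lower at 22 than at 6 months with edgeR (adjusted p = 0.0423, against 0.0556 with limma). Its 22-month libraries lay below those of 6 and 18 months and overlapped those of 2 months. Ephb1, Ephb3, Ephb4, Epha1, Epha2 and Epha8 did not pass in any comparison. The means of their 4 ages were 954 to 1023 for Ephb1, 196 to 216 for Ephb3 and 147 to 163 for Ephb4, a receptor of Efnb2 in veins. They were 5.51 to 10.5 for Epha1, 89.9 to 109.7 for Epha2 and 402 to 446 for Epha8. The summed EphA receptors ran from 3739 to 3949 at 22 months, under the 4607 to 4691, 4213 to 4507 and 4054 to 4409.9 of 2, 6 and 18 months. The summed EphB receptors ran from 2227 to 2442 at 22 months and from 2009.9 to 2153, 2077 to 2270.1 and 2029 to 2266 before. Neither sum is adjusted for length and GC content. Epha4, with means of 2289 and 1894 at 2 and 22 months, was the largest part of the EphA sum. With the trend removed, 3 of 9 EphA receptors passed as lower from 2 to 22 months.

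Ephrins, the ligands of these receptors, passed in limma as deposited in comparisons with 18 months, and 0 of 7 passed from 2 to 22 months. Efnb3 (id 13643, chromosome 11, 69554092 to 69561150), a transmembrane B ephrin, had 2182, 2143 and 1938 at 2 months, 2402, 2225 and 2268 at 6 months, 2404, 2481 and 2699 at 18 months, and 1905, 2393 and 2189 at 22 months. All 3 libraries at 18 months were above the other 9, the nearest by a small margin. Efnb3 was higher at 18 than at 2 months by 0.28 ± 0.07 (adjusted p = 0.0315) and then fell by 0.23 ± 0.07 (adjusted p = 0.0392). These calls were lost under 7 and 9 alternatives, among them without replicate 2 of 18 months and without replicate 3 of 18 months (adjusted p up to 0.13 and 0.18 over the libraries left out), and both held with the trend removed (0.0254 and 0.00435).

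Efna2 (chromosome 10), a glycolipid-anchored A ephrin, took the opposite course with 58.2, 77.9 and 55.0 at 2 months, 59.1, 67.3 and 57.1 at 6 months, 45.9, 47.8 and 40.2 at 18 months, and 60.0, 76.4 and 84.9 at 22 months. Its libraries at 18 months were the lowest of the 12, and the rise from 18 to 22 months was 0.70 ± 0.17 (adjusted p = 0.00979). That call was lost on leaving out replicate 3 of 18 months or replicate 3 of 22 months (adjusted p up to 0.0567). Efnb2 (chromosome 8), a B ephrin of vessels and progenitors, had 1033, 1096 and 1105 at 2 months, 966, 1068 and 965 at 6 months, 1024, 973 and 956 at 18 months, and 1176, 1094 and 1092 at 22 months. It rose by 0.19 ± 0.06 (adjusted p = 0.0366) from 18 to 22 months. Efnb1 (chromosome X), another B ephrin, had 158, 166 and 144 at 2 months, 139.6, 159 and 129 at 6 months, 119.9, 114 and 129.9 at 18 months, and 138, 166 and 154 at 22 months. It rose by 0.33 ± 0.11 (adjusted p = 0.0468) in the same step. Neither of these rises passed with DESeq2 (0.0863 and 0.143), edgeR (0.0651 and 0.0668) or TMM scaling, and in both genes 2 and 22 months overlapped. With the length and GC trend removed, Efna2 and Efnb1 passed as lower at 18 than at 2 months (adjusted p = 0.0361 and 0.0156), and Efnb2 passed as higher at 22 than at 6 months (0.0149).

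Efna1 (chromosome 3), an A ephrin of vessels, had 28.5, 28.4 and 17.2 at 2 months, 55.0, 34.3 and 28.1 at 6 months, 20.4, 29.2 and 39.5 at 18 months, and 31.3, 30.9 and 44.5 at 22 months. It did not pass (22 against 2 months 0.52 ± 0.29 (adjusted p = 0.17)). Its 22-month libraries lay above those of 2 months. Efna3, an A ephrin, had means of 210.5 to 251 and Efna5, another, of 154 to 183, and neither passed. In Efna3, 14% of the exon bases overlap a gene model on the opposite strand (Gm15998). The rule for a turn asked for opposite calls in neighbouring steps, and the step from 6 to 18 months was part of every such pair. In that step 0 members passed with limma, DESeq2 or edgeR, so no member could meet the rule. It therefore does not decide whether members turned at 18 months. Of all tested genes, 5 (0.0319%) met it.

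**Figure D5:**
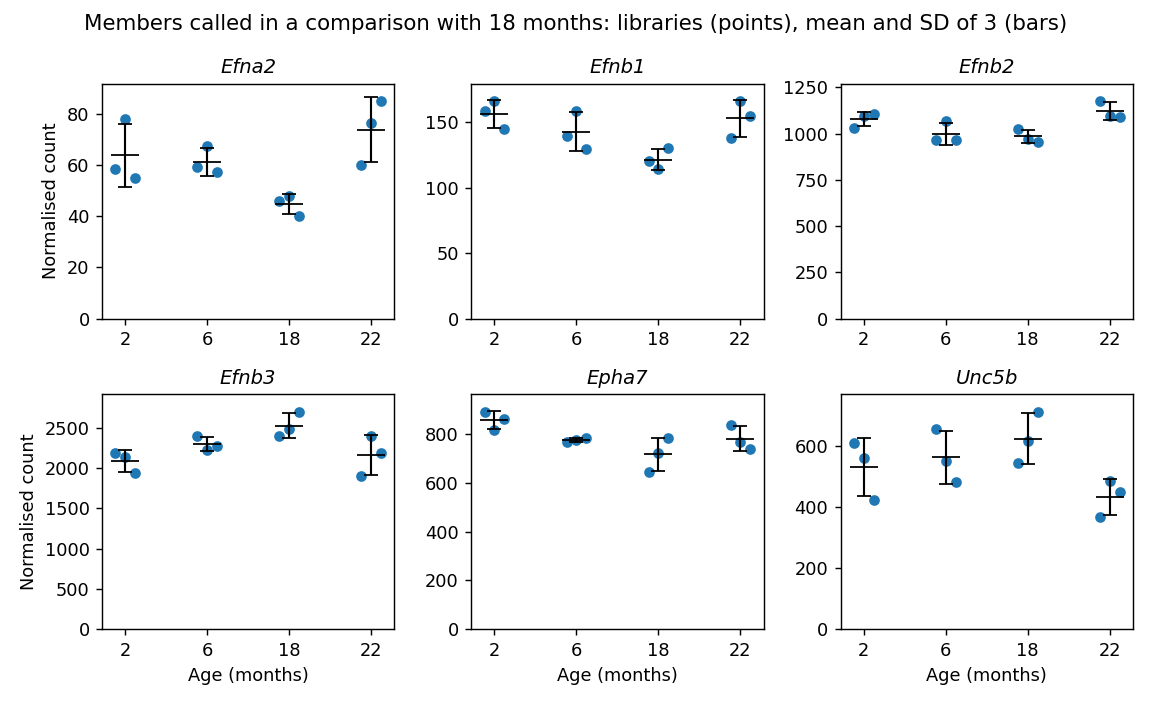
Points are normalised counts of single libraries and bars the mean and SD of 3 libraries for 6 members that passed in a comparison with 18 months. Efnb3 and Unc5b are highest at 18 months, and Efna2, Efnb1, Efnb2 and Epha7 have their lowest mean there.

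Slits and Robo receptors fell together from 2 to 22 months, all 3 and all 3. Slit1 (id 20562, chromosome 19, 41597824 to 41747275), a secreted repellent that young neurons also make, had 247, 219 and 202 at 2 months, 177, 209.6 and 197 at 6 months, 222, 149.9 and 149 at 18 months, and 123, 118 and 129 at 22 months. Slit3 (id 20564, chromosome 11, 35121456 to 35708507) had 492, 513 and 421 at 2 months, 444, 556 and 492 at 6 months, 415, 421 and 487 at 18 months, and 361, 357 and 314 at 22 months. In both, the 22-month libraries lay below the 9 others, and the earlier ages overlapped each other. Slit1 fell by 0.84 ± 0.13 (adjusted p = 0.000208) and Slit3 by 0.46 ± 0.10 (adjusted p = 0.00163) from 2 to 22 months. Slit2 (chromosome 5), the ligand with the longest transcript of the family at 9960 nt, had 195, 159 and 172 at 2 months, 146, 175 and 164 at 6 months, 154, 168 and 191 at 18 months, and 141, 144 and 123 at 22 months. It fell by 0.36 ± 0.11 (adjusted p = 0.0207) from 2 to 22 months. That call was lost on leaving out replicate 1 of 2 months or replicate 3 of 22 months (adjusted p up to 0.101), and without the trend the log2 fold change was 0.07 (adjusted p = 0.707).

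Robo3 (id 19649, chromosome 9, 37416045 to 37433436), the receptor known for letting commissural axons cross the midline, had 23.8, 18.3 and 21.6 at 2 months, 36.7, 22.1 and 21.1 at 6 months, 22.1, 24.3 and 28.0 at 18 months, and 9.13, 7.35 and 6.21 at 22 months. It was the least abundant of the 3 receptors, with steady levels up to 18 months except for a high replicate 1 of 6 months. All 3 libraries at 22 months fell below the other 9. They also lay under the filter of 10 normalised counts, which Robo3 passed through the younger ages alone. The log2 fold change was -1.60 ± 0.26 (adjusted p = 0.000998) from 18 to 22 months and -1.38 ± 0.26 (adjusted p = 0.00084) from 2 to 22 months. The logarithm of the value plus 1 understates changes at such low levels.

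Robo2 (id 268902, chromosome 16, 73891976 to 75447443), a Slit receptor, had 1356, 1483 and 1348 at 2 months, 1105, 1266 and 1239 at 6 months, 1104, 1203 and 1179 at 18 months, and 1094, 968 and 1009.8 at 22 months. All 3 libraries at 2 months were above all later ones, and all 3 at 22 months below all earlier ones. Robo1 (id 19876, chromosome 16, 72027518 to 73047491) had 781, 714 and 681 at 2 months, 572, 691 and 615 at 6 months, 637, 534 and 660.2 at 18 months, and 464, 571 and 530.3 at 22 months. Its 22-month libraries lay below those of 2 and 6 months and overlapped those of 18 months. They fell by 0.45 ± 0.07 (adjusted p = 0.000129) and 0.48 ± 0.09 (adjusted p = 0.00112) from 2 to 22 months. With the length and GC trend removed the adjusted p became 0.506 for Robo2 and 0.0488 for Robo1. Robo2 was also lower at 18 than at 2 months by 0.26 ± 0.07 (adjusted p = 0.0235), and this call was lost on leaving out replicate 1 or 2 of 2 months or replicate 1 or 3 of 18 months (adjusted p up to 0.114).

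Netrin receptors changed in 4 of 6 members from 2 to 22 months, and the netrins in 0 of 3. Dcc (id 13176, chromosome 18, 71253613 to 72351228), the attractive netrin receptor, had 693, 751 and 681 at 2 months, 576, 695 and 646 at 6 months, 587, 591 and 643 at 18 months, and 536, 501 and 464 at 22 months. Neo1 (id 18007, chromosome 9, 58874679 to 59036614), its relative that also binds repulsive guidance molecules, had 1194, 1135 and 1109 at 2 months, 1111, 1088 and 1049 at 6 months, 1217, 1089 and 1216 at 18 months, and 905, 924 and 930.1 at 22 months. Both had their lowest 3 libraries at 22 months. Neo1 had means of 1146, 1083 and 1174 at 2, 6 and 18 months, and no comparison among these ages passed. Dcc fell by 0.50 ± 0.08 (adjusted p = 0.000166) and Neo1 by 0.32 ± 0.06 (adjusted p = 0.000562) from 2 to 22 months, with adjusted p of 0.56 and 0.587 once the length and GC trend was removed.

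The Unc5 receptors, which mediate repulsion from netrins, did not move as 1 group. Unc5a (id 107448, chromosome 13, 54945151 to 55006018) had 516, 441 and 499 at 2 months, 661, 683 and 596 at 6 months, 624, 554 and 595 at 18 months, and 618, 689 and 659 at 22 months. Every later library lay above all 3 of 2 months, and the 3 later ages overlapped. The rise was 0.41 ± 0.08 (adjusted p = 0.0156) at 6 against 2 months, 0.28 ± 0.08 (adjusted p = 0.0321) at 18 against 2 months and 0.43 ± 0.08 (adjusted p = 0.000475) at 22 against 2 months. The call at 6 months was lost on leaving out replicate 2 of 2 months, replicate 1 of 6 months or replicate 2 of 6 months (adjusted p up to 0.0914). The call at 18 months was lost without replicate 2 or 3 of 2 months or replicate 1 or 3 of 18 months (up to 0.15). With the trend removed these 2 had adjusted p of 0.0568 and 0.0551.

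Unc5d (chromosome 8) had 169, 161 and 159.5 at 2 months, 124, 109.7 and 130.0 at 6 months, 202, 93.2 and 131 at 18 months, and 90.0, 94.0 and 99.4 at 22 months. Replicate 1 of 18 months was the highest of the 12, and Unc5d fell by 0.78 ± 0.19 (adjusted p = 0.00379) from 2 to 22 months (adjusted p = 0.141 with the trend removed). Unc5b (chromosome 10), a receptor of vessels and glia, had 608, 559 and 424 at 2 months, 655, 549 and 483 at 6 months, 545, 614 and 711 at 18 months, and 368, 483 and 447 at 22 months. Its 22-month libraries lay below those at 18 months and overlapped the others, and it fell by 0.53 ± 0.14 (adjusted p = 0.0143) in the last step. This call was lost on leaving out replicate 3 of 18 months or replicate 1 of 22 months (adjusted p up to 0.0883). Unc5c had means of 275 to 331 and did not pass with limma. It passed as lower at 22 than at 18 months with edgeR (adjusted p = 0.0409, against 0.0515 with limma). It passed as higher at 22 than at 2 months with the trend removed (adjusted p = 0.02). Of the ligands, Ntn1 (chromosome 11) had 233, 189 and 178 at 2 months, 149, 187 and 165 at 6 months, 192, 137 and 177 at 18 months, and 185, 197 and 204 at 22 months. Its ages overlapped, and it did not pass (22 against 2 months -0.02 ± 0.13 (adjusted p = 0.904)), though it was higher at 22 than at 6 months with the trend removed (adjusted p = 0.0288). Ntn3, a netrin, had means of 76.4 to 85.2 and Ntn4, a netrin of basement membranes, of 60.8 to 72.9, without a pass.

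Partners and effectors of guidance were read from a list of 62 other genes, all tested, that held adhesion partners, further ligands, and the kinases, GTPases and cytoskeletal proteins that act below the receptors. From 2 to 22 months 27 fell, 6 rose and 29 did not pass, and from 18 to 22 months 15 fell, 4 rose and 43 did not pass, with medians of -0.14 and -0.07 on the log2 scale. Beside these stand 17.2% lower and 18.4% higher of all tested genes at 22 against 2 months, and 10.2% lower and 8.63% higher at 22 against 18 months. With the length and GC trend removed the medians changed sign, to 0.02 and 0.07. Of the 62, 25 and 8 then passed in either direction, beside 22.4% and 10.6% of all tested genes. Among the 8 with the lowest p at 22 against 2 months were Dpysl3 and Dpysl5, collapsin response mediator proteins that relay semaphorin signals in young neurons. Dpysl3 went from 316 to 151 normalised counts (log2 fold change -1.06 ± 0.10, adjusted p = 3.19e-06) and Dpysl5 from 629 to 452 (log2 fold change -0.47 ± 0.08, adjusted p = 0.000244). The adhesion molecules Chl1 and L1cam, which join semaphorin receptor complexes, went from 876 to 548 (log2 fold change -0.68 ± 0.07, adjusted p = 1.11e-05) and from 1721 to 1350 (log2 fold change -0.35 ± 0.07, adjusted p = 0.00119). The plexin effector Mical3 fell too (log2 fold change -0.50 ± 0.06, adjusted p = 4.33e-05), as did the kinase Rock1 (log2 fold change -0.54 ± 0.09, adjusted p = 0.00022). The secreted netrin antagonist Draxin went from 79.2 to 40.1 (log2 fold change -0.97 ± 0.18, adjusted p = 0.000674). The chemokine Cxcl12, which guides migrating cells, rose from 349 to 535 (log2 fold change 0.61 ± 0.13, adjusted p = 0.0019). Those 8 calls held with the length and GC trend removed, with adjusted p up to 0.0135.

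Dpysl3 was also the 1 call of the list at 6 against 2 months (log2 fold change -0.46 ± 0.10, adjusted p = 0.0379), and 0 of the 62 passed at 18 against 6 months with limma. Of the list's 19 calls from 18 to 22 months, those with the lowest p were falls of Cntn2, Mical3, Chl1, Nrcam, Tiam1 and Rock1 and rises of Flrt3, a ligand of Unc5 receptors, and Cxcr4, the receptor of Cxcl12. With the length and GC trend removed Cntn2, Flrt3 and Cxcr4 still passed, and Mical3, Chl1, Nrcam, Tiam1 and Rock1 did not (adjusted p = 0.377, 0.212, 0.31, 0.349 and 0.146). Cxcr4 was lower at 18 than at 2 months (log2 fold change -0.71 ± 0.16, adjusted p = 0.0142) and rose again from 18 to 22 months (log2 fold change 0.69 ± 0.16, adjusted p = 0.00864). Other calls of the list at 18 against 2 months included Dpysl3, Dpysl5, Draxin, Chl1 and Fyn, lower, and Cxcl12, higher. Of these, Chl1 did not pass with the trend removed (adjusted p = 0.11). At 22 against 6 months Mical3, Chl1, Dpysl3, Srgap1, Cntn2, Kalrn, Arhgap39 and Flrt1 had the lowest p, all as lower. Srgap1 and Kalrn did not pass with the trend removed (adjusted p = 0.0767 and 0.898).

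Marker lists of cell types were read beside the shares of all tested genes. These were 17.2% lower and 18.4% higher at 22 against 2 months, and 10.2% lower and 8.63% higher at 22 against 18 months. Young neuron markers fell in 9 of 12 genes from 2 to 22 months, and their sum ran from 14198 to 15243 at 2 months and from 12752 to 13632 at 22 months. It was 13001 to 13474 at 6 months and lowest, at 11579 to 12171, at 18 months. From 18 to 22 months, the step with most of the members' falls, 3 of these 12 markers rose and the other 9 did not pass (limma, median log2 fold change 0.22). Oligodendrocyte markers fell in 9 of 10 genes from 18 to 22 months, with sums of 91680 to 116091, 95213 to 122180, 94808 to 125642 and 71301 to 92144 in the same order of ages. Oligodendrocyte precursor markers fell in 4 of 8, with sums of 2790 to 3397, 2693 to 3147, 2832 to 2951 and 2265 to 2634. Striatal neuron markers rose in 6 of 9 in that step, with sums of 72961 to 77888, 74936 to 77917, 71426 to 78478 and 80764 to 84020, and ependymal markers rose in 4 of 7, with sums of 1489 to 1609, 1488 to 1662, 1419 to 1669 and 1918 to 2144. Endothelial markers rose in 1 of 8 and pericyte, smooth muscle and fibroblast markers fell in 1 of 8 tested, both near the shares of all tested genes. With the length and GC trend removed, 9 oligodendrocyte, 2 oligodendrocyte precursor and 3 striatal neuron markers passed in that step, in either direction. So did 2 ependymal and 4 young neuron markers, beside 10.6% of all tested genes. From 2 to 22 months microglia markers rose in 5 and fell in 1 of 10, astrocyte and quiescent stem cell markers rose in 6 and fell in 2 of 10, and choroid plexus markers rose in 1 of 7, near the share of all tested genes. Their sums at 2 and 22 months were 4277 to 4369 and 5511 to 6659 for microglia, 44023 to 47121 and 44880 to 46587 for astrocytes, and 1244 to 2043 and 931 to 1982 for choroid plexus. With the trend removed, 5 microglia, 5 astrocyte, 0 choroid plexus and 10 young neuron markers passed from 2 to 22 months, in either direction. Of all tested genes 22.4% then passed. The part of these cell types, and of transcript length, in the changes of Sema4d, Plxnb3, Unc5b and the other members was not tested.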

How the data were processed

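The members, the lists of partners and markers, and the tests were chosen with earlier results of these data known. The authors deposited 1 table of signal values, 1 column per library, each value a count scaled by a library factor. The submitters' processing notes name DESeq2 and mm10, and the aligner, counting tool, annotation, strandedness and versions are not given in the sources used here. All values above 0 were whole multiples of 1 read's worth (100% in each library, relative tolerance 1e-06), so whole reads were recovered for the count tests. No 2 libraries of an age agreed within sampling noise (chi-square per degree of freedom 1.46 to 5.91 over tested genes).

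The 15663 of 23725 genes that reached 10 normalised counts in 3 or more libraries were tested as log2(value + 1) with limma 3.58.1 (R 4.3.3, eBayes with trend over mean level, 8.96 prior degrees of freedom) in 1 fit of all 12 libraries, two-sided, Benjamini-Hochberg over all tested genes, threshold 0.05. Fold changes on this scale understate changes of low genes, and their errors are standard errors (n = 3 against 3). The script was tested on simulated data. edgeR 4.0.16 and DESeq2 1.42.0 were run on the recovered reads as alternatives (limma called 5584, edgeR 5238 and DESeq2 4429 genes at 22 against 2 months). Length and GC content were those of the longest GENCODE M21 transcript (67 of 67 tested members, 94.8% of tested genes). Positions and promoter windows came from RefSeq on GRCm38.p6, where all 69 members matched by identifier.

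All 12 libraries' values are given for members that passed in any comparison or the F test, a panel fixed by role, and the 3 highest and 3 lowest fold changes in 4 comparisons (45 members), and up to 8 partners per comparison are named by lowest p, except 1 that is not reported here.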

Additional observations from a re-analysis of the deposited data

How the results depend on the processing

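With the length and GC trend removed, the members called were 1 at 6 against 2 months, 11 at 22 against 18, 19 at 22 against 2 and 12 at 22 against 6 months, and with the replicate block added to that fit they were 1, 12, 19 and 13. Without an intensity trend 0, 12 and 2 were called at 6 against 2, 22 against 18 and 18 against 2 months. Leaving out 1 library at a time gave 0 to 3 called at 6 against 2 months, 0 to 0 at 18 against 6, 11 to 29 at 22 against 18, 29 to 34 at 22 against 2, 2 to 7 at 18 against 2, 18 to 25 at 22 against 6 months and 27 to 34 in the F test. At 18 against 2 months these were 2 without 2 months replicate 1 or 2 and 3 without 18 months replicate 2 or 3. The other alternatives moved no total of members called by over 1.5 times, but the rises at 22 against 18 months went from 4 to 2 with DESeq2, edgeR, TMM scaling, the replicate block, no intensity trend or the 2 compared ages alone. At 18 against 2 months the rises went from 2 to 1 with no filter on low values, the replicate block or the length and GC trend removed, and to 0 without an intensity trend. At 22 against 6 months they went from 1 to 2 with a filter at 50 normalised counts. With the trend removed 6 called values changed sign: Plxna2 at 22 against 18 months (0.000755), Plxna4 at 22 against 2 (0.0352), Epha4 at 22 against 6 (0.0135), Slit2 at 22 against 2 (0.0651), Robo2 at 22 against 6 (0.0468) and Dcc at 22 against 18 (0.0917), the same without and with the replicate block. The cause was not tested.

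Over all tested genes, the count called ran from 17 to 266 at 6 against 2 months (145 as reported), 3 to 67 at 18 against 6 (24), 1184 to 3319 at 22 against 18 (2956), 3160 to 5775 at 22 against 2 (5584), 592 to 1348 at 18 against 2 (1141), 1714 to 3886 at 22 against 6 (3480) and 2866 to 5306 in the F test (4936). The labels do not say whether libraries with the same replicate number share more than that number. Their deviations from the age means correlated between -0.187 and 0.159, against -0.238 to 0.143 for libraries with other numbers. These values do not decide whether same-numbered libraries were prepared together. With the replicate block alone, 2, 0, 23, 33, 4 and 22 members were called at 6 against 2, 18 against 6, 22 against 18, 22 against 2, 18 against 2 and 22 against 6 months. Depth limits the low members: at 3 reads, a library's limit was 1.74 to 4.41 normalised counts.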
